A study of Mus musculus with 47 samples.

Results

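The step from 2 h to 6 h after X-rays was measured in vector cells, the JB6 mouse epidermal line carrying the empty retroviral vector. The comparison rests on 12 of the series' 47 arrays, 6 at 6 h against 6 at 2 h. At each time, 3 arrays came from cells given 10 cGy and 3 from cells given 100 cGy, and the arrays were chosen by their labelled line, dose and time. All 4 groups carry the empty vector, were selected with puromycin and grew in MEM with 5% fetal bovine serum. They descend from 1 transduced line, so the spread is that of samples of this line, and whether replicates were separate cultures is not given in the labels. P-values therefore measure the spread between these samples, which may be technical. The other line of the study carries an shRNA against Anxa2 (annexin A2), and its 12 arrays at the same doses and times serve here for comparison. Sham-treated (untreated) vector cells are among the samples at 2 h and 24 h, with 3 arrays each. No untreated 6 h group is among the samples used here, so time since irradiation and time in culture after handling cannot be told apart.

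A change below is the 6 h mean minus the 2 h mean of log2 RMA signal with its standard error, from a limma fit with dose as a covariate. A gene rose or fell where its Benjamini-Hochberg adjusted p over 8675 tested genes was under 0.05, and per-array values are log2 signals. As background, X-rays break DNA, and the break signal stabilises p53, which switches on arrest genes such as Cdkn1a and its own inhibitor Mdm2. Handling and growth factors briefly switch on immediate early genes, whose short-lived RNAs encode transcription factors and cytokines and fade within hours. Loss of amino acids or misfolded protein leads through phosphorylation of eIF2 to the transcription factor ATF4, which induces amino acid synthesis, amino acid transport and tRNA charging genes.

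Between 2 h and 6 h, 680 genes rose and 546 fell, which is 14.1% of the genes tested (7.84% higher and 6.29% lower). Genes of amino acid synthesis were among those that rose furthest, and genes of tRNA charging rose by smaller steps. A linker histone gene, chemokine genes and genes of DNA replication and mitosis were among those that fell. Most steps were small: 11 genes rose and 13 fell by at least 2-fold. The median change over all tested genes was -0.02. The 6 arrays at 6 h did not overlap the 6 at 2 h in 627 genes (7.23% of those tested), among them 332 of the 680 genes that rose and 263 of the 546 that fell.

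The arrays of replicate 3 at 2 h stood apart from their group mates, at both doses. On the first principal component of the 12 arrays (37.8% of the variance), the other 4 arrays at 2 h lay between -19.50 and -13.00. The replicate 3 arrays at 2 h lay at 7.30 and 10.91, among the 6 h arrays (4.98 to 11.31). On the second component (24.6%) they lay at 16.45 and 18.92, above all 10 other arrays. As a measure of RNA quality, the signal of the 3' probe set of Gapdh minus that of its 5' probe set ran from -0.08 to 0.11 at 2 h and from -0.05 to 0.07 at 6 h. Without both arrays 1159 genes rose and 865 fell (23.3% of those tested, 13.4% higher and 9.97% lower), and 628 of the 680 higher and 470 of the 546 lower genes were called again. None of the 1226 called genes changed sign without them. By at least 2-fold, 14 genes rose and 49 fell in that fit, against 11 and 13 with all 12 arrays. Values without both arrays are given below beside some of the results they move. A step given only for all 12 arrays can differ in size in that fit too. List counts in that fit are to be set against its own shares of all genes, 13.4% higher and 9.97% lower.

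Markers of cell types were checked on the 12 arrays. Of 36 epithelial and keratinocyte markers on the array, 20 lay under the low-signal limit of 4.35 (the lowest 30% of genes) on all 12 arrays. Cdh1, the epithelial cadherin, lay at 2.20 to 2.65, Epcam at 2.93 to 3.98 and Trp63, the keratinocyte p63 gene, at 3.11 to 3.58, all under the limit. Of 20 fibroblast and mesenchymal markers, 17 were above the limit on all 12 arrays. Another 10 of the epithelial markers were above the limit on all 12 arrays, among them Itga6 (integrin alpha 6, 8.58 to 8.99), the junction genes Tjp1 (7.70 to 8.15) and Jup (6.11 to 6.60) and the keratin gene Krt10 (7.15 to 7.79). Most epithelial markers (20 of 36) thus lay under the limit in this line labelled epidermal, while most mesenchymal markers (17 of 20) lay above it. Vim (12.91 to 13.13) and Col1a1 (10.39 to 11.25), genes of mesenchymal cells, were above the limit. So were, on all 12 arrays, 8 of 24 leukocyte, 5 of 24 muscle, 3 of 14 endothelial, 2 of 8 melanocyte and 2 of 9 adipocyte markers. A signal above the limit therefore does not by itself mark a cell type. The mean signal of the epithelial list ran from 4.19 to 4.30 at 2 h and from 4.12 to 4.26 at 6 h, and that of the leukocyte list from 4.08 to 4.23 and from 4.02 to 4.16. None of the 14 tested epithelial, 8 leukocyte, 4 endothelial, 5 muscle or 3 adipocyte markers was called by limma, and 2, 2, 1, 0 and 0 of them had an unadjusted p under 0.05. Of the 17 mesenchymal markers tested, 2 rose and 1 fell. Pdgfrb, a platelet-derived growth factor receptor gene, rose by 0.84 ± 0.08 (adjusted p = 4.83e-05). Of the 3 melanocyte markers tested, Mitf fell by 0.52 ± 0.08 (adjusted p = 0.000957).

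Of the genes called with all 12 arrays, Cth had the largest rise, although Hspa1b, described below, rose further without both replicate 3 arrays at 2 h (2.21 against 1.37). Cth encodes cystathionine gamma-lyase, the enzyme that makes cysteine from cystathionine. At 2 h Cth read 7.92, 8.03 and 7.33 on the 3 arrays at 10 cGy and 7.88, 8.03 and 7.22 at 100 cGy. At 6 h it read 9.37, 9.39 and 9.33 at 10 cGy and 9.28, 9.21 and 9.40 at 100 cGy. All 6 arrays at 6 h lay above all 6 at 2 h, and the lowest values at 2 h were those of replicate 3 at each dose. The step was 1.60 ± 0.14 (3.03-fold, adjusted p = 1.43e-05), and 1.37 ± 0.06 without the replicate 3 arrays at 2 h. Gpt2, the mitochondrial alanine aminotransferase gene, ran from 6.80 to 7.77 at 2 h (median 7.48) and from 8.62 to 9.05 at 6 h (median 8.82). It rose by 1.40 ± 0.14 (2.64-fold, adjusted p = 6.69e-05), again with no overlap. Psph encodes phosphoserine phosphatase, which catalyses the last step of serine synthesis. Psph ran from 8.20 to 8.79 at 2 h (median 8.68) and from 9.41 to 9.64 at 6 h (median 9.60), a step of 0.99 ± 0.10 (1.98-fold, adjusted p = 7.43e-05). Slc6a9, a glycine transporter gene, ran from 6.80 to 7.53 at 2 h (median 7.31) and from 8.01 to 8.38 at 6 h (median 8.22). Its step was 0.97 ± 0.11 (adjusted p = 0.000102). These 4 genes of amino acid handling rose at both doses, and the 10 cGy and 100 cGy steps of Cth were 1.61 and 1.59.

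**Figure D1:**
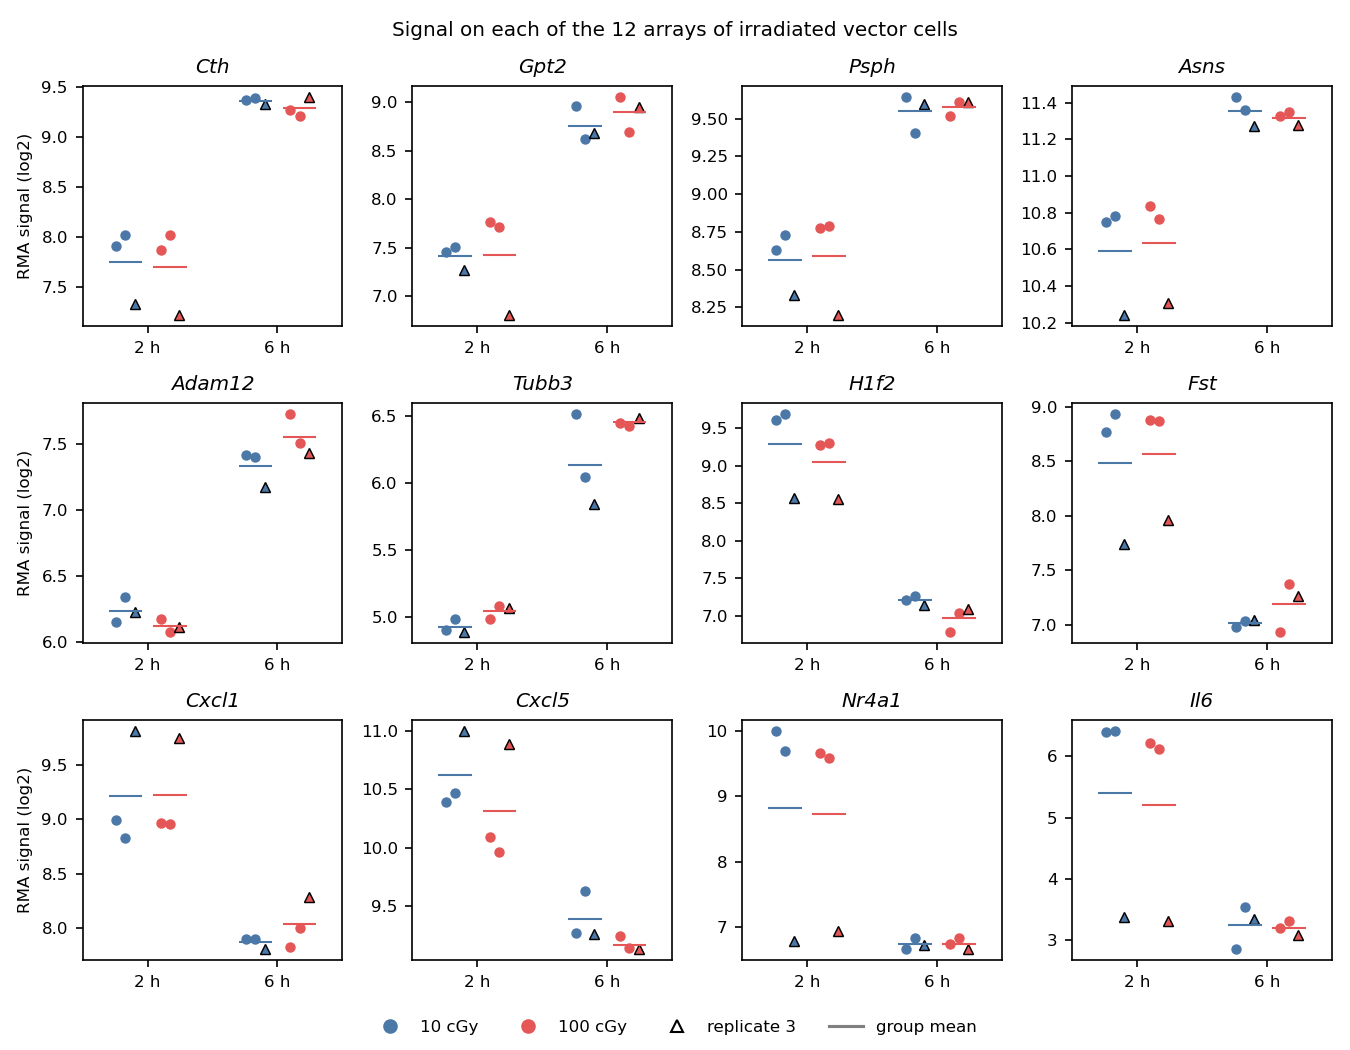
Log2 RMA signal (vertical axis) of 12 genes on each of the 12 arrays of irradiated vector cells, by time (horizontal axis) and dose (colour), with lines at the mean of each group of 3 and triangles for replicate 3. Cth, Gpt2, Psph, Asns, Adam12 and Tubb3 lie higher at 6 h and H1f2, Fst, Cxcl1 and Cxcl5 lower, with no overlap between times, while for Nr4a1 and Il6 the replicate 3 arrays at 2 h lie near the 6 h level.

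The list of ATF4 target and unfolded protein response genes had the largest share of members higher. Of 38 members tested, 15 rose (39.5%, against 7.84% of all genes) and 0 fell by limma, with 3 lower at an unadjusted p under 0.05. Without both replicate 3 arrays at 2 h, 15 rose and 9 fell. The median change was 0.19 (0.10 without those arrays), against -0.02 over all genes. Without 1 array, replicate 3 at 2 h after 10 cGy, 4 members fell, and without replicate 3 at 2 h after 100 cGy, 2 fell.

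Members that rose fell into enzymes of amino acid synthesis, transporters, tRNA synthetases and folding factors of the endoplasmic reticulum. Asns, the asparagine synthetase gene, ran from 10.24 to 10.84 at 2 h (median 10.76) and from 11.27 to 11.43 at 6 h (median 11.34). It rose by 0.72 ± 0.10 (1.65-fold, adjusted p = 0.000646). Shmt2 and Psat1 (mitochondrial serine hydroxymethyltransferase and phosphoserine aminotransferase, named after their values were seen) rose by 0.42 ± 0.09 and 0.39 ± 0.07. Slc7a5, the large neutral amino acid transporter gene, also named after its values were seen, rose by 0.71 ± 0.13 (adjusted p = 0.003). Aminoacyl-tRNA synthetases charge tRNAs with their amino acids. Wars (tryptophan) ran from 8.22 to 8.65 at 2 h and from 8.85 to 9.08 at 6 h, and rose by 0.57 ± 0.08. Gars (glycine) ran from 10.29 to 10.56 at 2 h and from 10.92 to 11.04 at 6 h, and rose by 0.52 ± 0.06 (adjusted p = 0.000161). Aars (alanine), named after its values were seen, rose by 0.46 ± 0.08 (adjusted p = 0.00255). None of the 3 overlapped between the times. Among folding factors, Ero1a, an oxidase that regenerates disulphide transfer in the endoplasmic reticulum, rose by 0.81 ± 0.08 (adjusted p = 4.83e-05). Dnajb9, a co-chaperone of the endoplasmic reticulum, rose by 0.70 ± 0.07 (adjusted p = 4.83e-05). The transcription factor gene Atf5 rose by 0.65 ± 0.07 (adjusted p = 7.70e-05). Vldlr, the very low density lipoprotein receptor gene, rose by 1.13 ± 0.20 (2.19-fold, adjusted p = 0.00213) from a range of 6.25 to 7.46 to a range of 7.76 to 8.33. Without both replicate 3 arrays at 2 h every gene named in this paragraph rose by a smaller step and was called again. These steps ran from 0.28 (Shmt2) to 0.81 (Vldlr), with Asns at 0.55 and Slc7a5 at 0.49.

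Other members of the list encode regulators of the response. The following 4 genes were named after their values were seen, and none was called with all 12 arrays. Atf4 ran from 11.02 to 11.91 at 2 h (median 11.81) and from 11.22 to 11.46 at 6 h (median 11.42), with a change of -0.21 ± 0.16 (adjusted p = 0.412). Its replicate 3 arrays at 2 h read 11.02 and 11.04, below all 6 h arrays, and its other arrays at 2 h 11.80 to 11.91, above them. Without replicate 3 at 2 h, Atf4 fell by 0.48 ± 0.06 (adjusted p = 3.70e-05). Chac1, which encodes a glutathione-degrading enzyme, read 5.88 and 5.89 on the replicate 3 arrays at 2 h, 8.97 to 9.13 on the others, and 6.87 to 7.52 at 6 h. Its change was -0.78 ± 0.58 (adjusted p = 0.402), and -1.84 ± 0.09 (adjusted p = 3.42e-09) without replicate 3 at 2 h. Sesn2, a stress-induced regulator of mTORC1, changed by -0.76 ± 0.28 (adjusted p = 0.0876), and by -1.25 ± 0.10 (adjusted p = 8.35e-07) without those arrays. Ddit4, another inhibitor of mTORC1, changed by -0.18 ± 0.33 (adjusted p = 0.758), and by -0.78 ± 0.06 (adjusted p = 8.35e-07) without them. On the replicate 3 arrays at 2 h Chac1 and Ddit4 lay below every 6 h array, and on the other arrays at 2 h above every one.

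The proximal promoters of 3 called members are shown because 15 members of this list rose and ATF4 binds, with C/EBP partners, a composite element of the form TGATGNAA. The motif was searched on both strands in the 250 bases before each RefSeq start site (GRCm38.p6), and the capitals mark each match within the 140 bases before the start site.
Asns (chr6:7693210-7693349, minus strand): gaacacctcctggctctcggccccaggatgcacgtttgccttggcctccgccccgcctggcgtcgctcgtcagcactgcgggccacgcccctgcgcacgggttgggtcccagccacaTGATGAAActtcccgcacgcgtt
Gars (chr6:55037861-55038000, plus strand): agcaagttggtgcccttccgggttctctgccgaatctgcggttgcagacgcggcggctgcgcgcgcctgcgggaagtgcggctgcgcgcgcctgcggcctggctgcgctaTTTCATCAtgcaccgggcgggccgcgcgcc
Aars (chr8:111033702-111033841, plus strand): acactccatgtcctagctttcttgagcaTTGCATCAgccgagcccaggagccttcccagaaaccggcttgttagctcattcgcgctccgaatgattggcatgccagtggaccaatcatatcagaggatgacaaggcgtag
Of the 36 tested list members with an entry in the promoter table, 9 (25.0%) held the motif, against 3.91% of 27025 genes. Among the 13 called members with an entry, 6 held it. In Gars and Aars the match lies on the opposite strand to the gene, so it reads there as its reverse complement. A match is a description of these letters and no measure of binding. The list was written to hold ATF4 targets, so its share can reflect how it was chosen and is no result about the time step. Cth has no entry in the table.

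Other genes with a large rise belong to no single pathway. Adam12, a membrane metalloprotease that can shed EGF receptor ligands, ran from 6.07 to 6.34 at 2 h (median 6.16) and from 7.17 to 7.73 at 6 h (median 7.43). It rose by 1.27 ± 0.08 (2.41-fold, adjusted p = 4.97e-06). Tubb3, the class III beta-tubulin gene, ran from 4.89 to 5.09 at 2 h (median 4.99) and from 5.85 to 6.52 at 6 h (median 6.44), a rise of 1.31 ± 0.09 (adjusted p = 5.04e-06). For both genes the replicate 3 arrays at 2 h lay with the others, and the step without them was 1.26 and 1.30. Abcb1a, a P-glycoprotein efflux pump gene, ran from 4.68 to 5.66 at 2 h (median 5.52) and from 6.41 to 6.73 at 6 h (median 6.57). It rose by 1.29 ± 0.17 (2.44-fold, adjusted p = 0.000386). Nr2f1, an orphan nuclear receptor gene, rose by 1.04 ± 0.21 (adjusted p = 0.00481), from 6.33 to 7.63 at 2 h to 7.65 to 8.54 at 6 h. The 2 ranges touch closely, and the highest arrays at 2 h were those of replicate 3 (7.41 and 7.63). Npr3, the natriuretic peptide clearance receptor gene, rose by 0.92 ± 0.13 (adjusted p = 0.000509), while 2 other probe sets of Npr3 changed by 0.70 and 0.34. Spon2, a secreted matrix protein gene, rose by 0.86 ± 0.06 (adjusted p = 5.04e-06). Plat, the tissue plasminogen activator gene, ran from 7.18 to 7.63 at 2 h and from 8.06 to 8.28 at 6 h, and rose by 0.80 ± 0.08 (adjusted p = 4.46e-05).

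H1f2, a linker histone gene, fell further than any other gene without overlap. At 2 h it read 9.61, 9.69 and 8.57 at 10 cGy and 9.27, 9.30 and 8.56 at 100 cGy. At 6 h it read 7.21, 7.27 and 7.15 at 10 cGy and 6.78, 7.03 and 7.10 at 100 cGy. Every 6 h array lay below every 2 h array, and replicate 3 was the lowest at 2 h at each dose. The change was -2.08 ± 0.18 (4.22-fold lower, adjusted p = 1.43e-05), and -2.38 ± 0.07 without replicate 3 at 2 h. Another H1f2 probe set changed by -2.12 and a further one by only -0.27, so the size of the fall depends on the probe set. Transcripts of replication-dependent histone genes mostly end without a poly(A) tail, while labelling here was primed with oligo-dT. In untreated vector cells H1f2 was lower at 24 h than at 2 h by a log2 difference of -2.41 ± 0.14 (adjusted p = 7.51e-05, limma). Of 6 histone genes tested, 2 fell, the other being H2ax, which encodes the histone variant phosphorylated at DNA breaks. H2ax ran from 9.16 to 9.49 at 2 h and from 8.51 to 8.92 at 6 h, and fell by 0.61 ± 0.06 (adjusted p = 7.70e-05).

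Genes of DNA replication and of mitosis were lower at 6 h by small steps. Of 44 DNA replication genes tested, 19 fell (43.2%, against 6.29% of all genes) and 3 rose, with a median change of -0.20. Of 41 mitotic genes, 15 fell (36.6%) and 0 rose by limma (0 higher also at an unadjusted p under 0.05), with a median of -0.21. Without both replicate 3 arrays at 2 h, 23 replication genes fell and 3 rose, and 13 mitotic genes fell and 1 rose. Mean signal over the tested mitotic genes ran from 9.03 to 9.29 on the 2 h arrays and from 8.70 to 9.03 on the 6 h arrays. The lowest 2 h array and the highest 6 h array both stood at 9.03, so the ranges just overlapped. Rfc4, a subunit of the clamp loader, ran from 7.85 to 8.07 at 2 h (median 7.98) and from 7.17 to 7.53 at 6 h (median 7.40). It fell by 0.60 ± 0.06 (1.51-fold, adjusted p = 7.70e-05). Rfc5 and Rfc2, of the same complex, fell by 0.46 ± 0.05 and 0.42 ± 0.05. Pole, the catalytic subunit of DNA polymerase epsilon, fell by 0.49 ± 0.07 (adjusted p = 0.000508). Tk1, thymidine kinase, ran from 9.82 to 10.24 at 2 h and from 9.27 to 9.52 at 6 h, and fell by 0.58 ± 0.08 (adjusted p = 0.000512). The Tk1 arrays did not overlap, and the highest at 2 h were the replicate 3 arrays (10.18 and 10.24). The 3 replication genes that rose encode cyclins E2 and E1 and the licensing factor Cdc6, with steps of 0.36 (Ccne2), 0.32 (Ccne1) and 0.29 (Cdc6). These 3 were named after their values were seen. Ccne2 and Cdc6 were not called without both replicate 3 arrays at 2 h (adjusted p = 0.0881 and 0.0619), and the 3 that rose were Ccne1 with Orc1 and Fen1, which were named after their values were seen. Without 1 of the 12 arrays at a time, between 0 and 3 replication genes rose, and 0 did without replicate 2 at 6 h after 10 cGy.

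Among mitotic genes, Top2a, topoisomerase II alpha, ran from 10.47 to 10.86 at 2 h (median 10.66) and from 9.94 to 10.42 at 6 h (median 10.21). It fell by 0.47 ± 0.08 (adjusted p = 0.00165). Nuf2, a kinetochore protein gene, fell by 0.48 ± 0.07, Prc1, a spindle midzone protein gene, by 0.45 ± 0.08, and Cdk1, the mitotic kinase gene, by 0.37 ± 0.07. Mki67, the proliferation marker gene, ran from 9.76 to 10.04 at 2 h and from 9.32 to 9.68 at 6 h, and fell by 0.37 ± 0.07 (adjusted p = 0.00327). None of these genes overlapped between the times, although each step was under 1.5-fold. Of 39 DNA repair genes, 11 fell (28.2%, against 6.29% of all genes) and 1 rose (2.56%, against 7.84%). Brca2, a mediator of homologous recombination, had a median of 7.08 at 2 h and 6.58 at 6 h with no overlap, and fell by 0.49 ± 0.06 (adjusted p = 0.000137). Atr, the replication stress kinase gene, fell by 0.38 ± 0.07. The repair gene that rose was Xpc, which senses bulky DNA damage, from 5.37 to 5.73 at 2 h to 5.93 to 6.28 at 6 h. Its step was 0.54 ± 0.08 (adjusted p = 0.000564). Without both replicate 3 arrays at 2 h, 6 repair genes fell, and without any 1 of 8 single arrays 6 or 7 did. These were replicate 3 at 2 h at each dose, replicates 1 and 2 at 2 h after 100 cGy, and replicates 2 and 3 at 6 h at each dose.

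**Figure D2:**
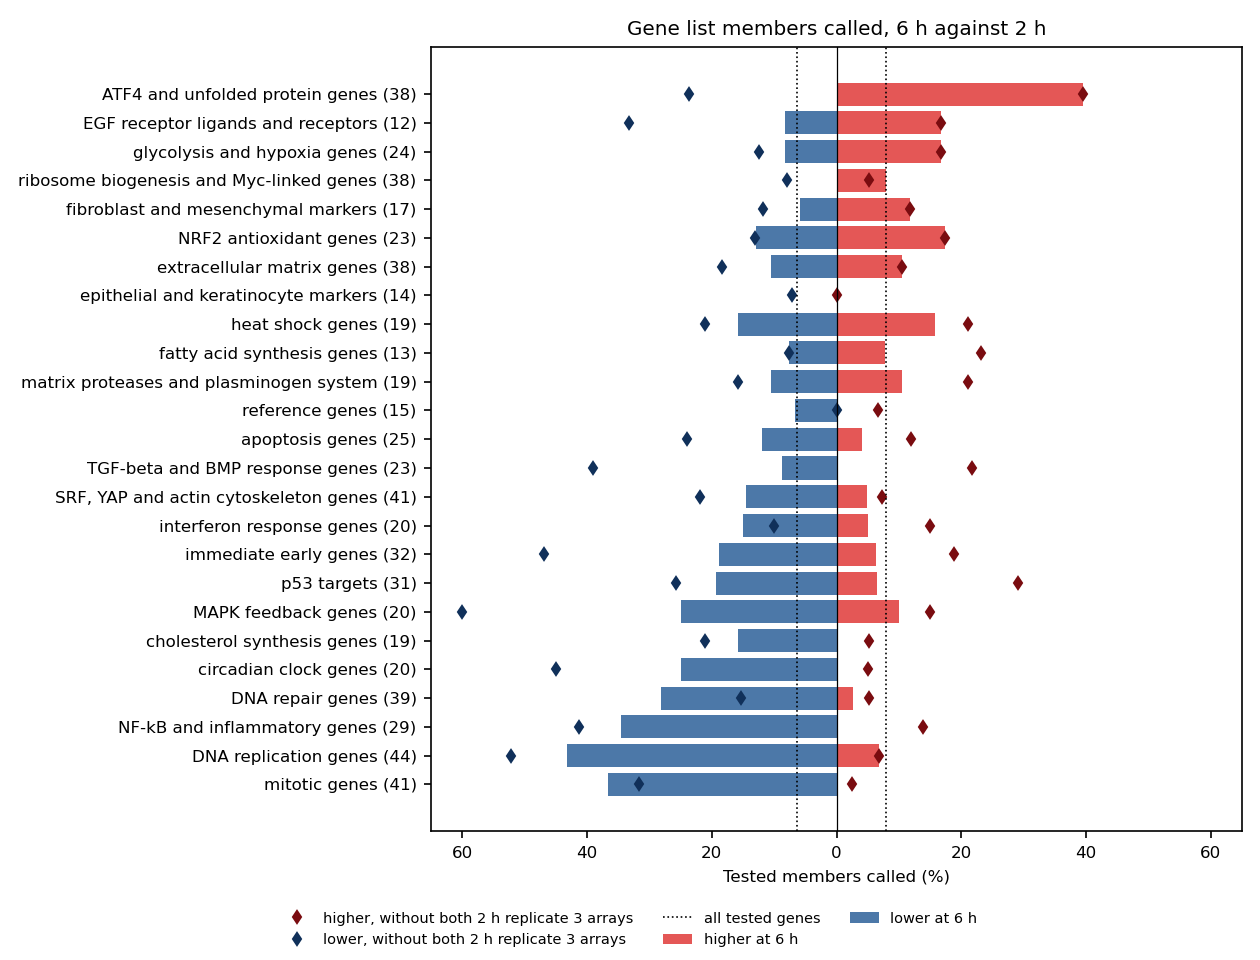
Share of tested members of each gene list (names with the number tested) called higher to the right and lower to the left, in percent. Dotted lines mark the share of all genes tested in the fit with all arrays, 7.84% higher and 6.29% lower. Diamonds give the list shares without both 2 h replicate 3 arrays. The diamonds are to be set against that fit's own 13.4% higher and 9.97% lower, not against the dotted lines. Lists with under 10 tested members are not drawn. ATF4 and unfolded protein genes reach 39.5% higher, and DNA replication genes 43.2%, mitotic genes 36.6% and NF-kB and inflammatory genes 34.5% lower.

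Genes of the p53 pathway, which X-rays activate, were mixed. Of 31 tested p53 target genes, 2 rose (6.45%, against 7.84% of all genes) and 6 fell (19.4%, against 6.29%). Without 1 array at a time between 1 and 4 rose, with 4 without replicate 3 at 2 h after 10 cGy and 1 without replicate 1 or 2 at 2 h after 100 cGy or replicate 2 at 6 h of either dose. Without both replicate 3 arrays at 2 h, 9 rose and 8 fell. Mdm2, the ubiquitin ligase that degrades p53, ran from 9.58 to 10.69 at 2 h (median 9.95) and from 9.26 to 9.75 at 6 h (median 9.50). The ranges overlapped, and Mdm2 fell by 0.61 ± 0.11 (adjusted p = 0.00286), or by 0.77 without both replicate 3 arrays at 2 h. Cdkn1a, the p21 inhibitor of cyclin-dependent kinases, ran from 10.29 to 11.17 at 2 h (median 10.83) and from 10.38 to 10.78 at 6 h (median 10.60). Its change of -0.22 ± 0.09 was not called (adjusted p = 0.128), and was -0.34 ± 0.07 (adjusted p = 0.00183) without replicate 3 at 2 h. Ccng1, cyclin G1, changed by -0.10 ± 0.07 (adjusted p = 0.348). Gadd45a, a growth arrest gene induced by DNA damage and by ATF4, was not among the p53 targets counted here. Gadd45a ran from 6.52 to 7.91 at 2 h (median 7.70) and from 5.85 to 6.42 at 6 h (median 6.09). It fell by 1.24 ± 0.25 (2.37-fold, adjusted p = 0.00517) with no overlap, its 2 lowest values at 2 h being the replicate 3 arrays (both 6.52). Plk2, a polo-like kinase gene, fell by 0.58 ± 0.10, and Tnfrsf10b, a death receptor gene, by 0.38 ± 0.08. Casp4, the mouse inflammatory caspase gene, was counted with the apoptosis genes and not with the p53 targets. Casp4 ran from 6.86 to 7.41 at 2 h (median 7.04) and from 5.95 to 6.29 at 6 h (median 6.13), and fell by 0.97 ± 0.08 (adjusted p = 1.43e-05). Anxa2, whose RNA the shRNA of the other line targets, ran from 12.52 to 12.66 at 2 h and from 12.46 to 12.62 at 6 h (change -0.04 ± 0.05, adjusted p = 0.646).

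Inflammatory genes had 10 of 29 tested members lower (34.5%, against 6.29% of all genes) and 0 higher by limma (2 at an unadjusted p under 0.05), with a median change of -0.21. Without both replicate 3 arrays at 2 h 12 fell and 4 rose. Without replicate 1 or without replicate 2 at 6 h after 100 cGy 6 fell, and without either replicate 3 array at 2 h 2 rose. Cxcl1, a neutrophil chemokine gene, read 8.82 to 9.81 at 2 h (median 8.98), with replicate 3 at 9.81 after 10 cGy and 9.75 after 100 cGy. At 6 h it read 7.90, 7.90 and 7.80 at 10 cGy and 7.82, 8.00 and 8.28 at 100 cGy. The 6 h arrays all lay below the 2 h arrays, and the highest at 2 h were replicate 3 at each dose. Cxcl1 fell by 1.27 ± 0.17 (2.41-fold, adjusted p = 0.000411), and by 0.98 ± 0.08 without those arrays. Cxcl5, another ligand of the same receptor, ran from 9.96 to 11.00 at 2 h (median 10.43) and from 9.12 to 9.63 at 6 h (median 9.25), and fell by 1.19 ± 0.15 (adjusted p = 0.000247). Without both replicate 3 arrays at 2 h it fell by 0.95. Nfkbiz, an atypical IkB that acts in the nucleus, fell by 0.70 ± 0.08 (adjusted p = 0.000134). Vcam1, a leukocyte adhesion molecule gene, fell by 0.54 ± 0.07 (adjusted p = 0.000481). The adaptor gene Traf1 fell by 0.44 ± 0.08 (adjusted p = 0.00272). In untreated vector cells Cxcl1 was higher at 24 h than at 2 h by 1.65 ± 0.18 (adjusted p = 0.00116, limma). So the fall to 6 h and the untreated value at 24 h lay on opposite sides of the 2 h level.

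The promoters of Cxcl1 and Il6 are shown because these inflammatory genes fell and match the NF-kB consensus (10 bases), the sites that NF-kB dimers bind. It was searched as above, and the capitals mark the matches on either strand within the 140 bases before the start site.
Cxcl1 (chr5:90891105-90891244, plus strand): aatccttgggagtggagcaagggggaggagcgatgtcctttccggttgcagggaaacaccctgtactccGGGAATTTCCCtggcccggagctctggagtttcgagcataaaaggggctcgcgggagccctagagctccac
Il6 (chr5:30012974-30013113, plus strand): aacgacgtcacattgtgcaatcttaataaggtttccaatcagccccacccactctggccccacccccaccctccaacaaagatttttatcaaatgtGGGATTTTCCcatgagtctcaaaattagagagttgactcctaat
The motif was found in 10 of 21 tested inflammatory list members with an entry (47.6%), against 8.23% of all genes, and in 3 of the 5 called members with an entry. The list was written to hold NF-kB genes, so this share too can reflect how it was chosen. Cxcl1 has a match on each strand, offset by 1 base. Cxcl5 and Fst have no entry in the table.

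Il6, Nr4a1 and Ccn2 had larger mean steps than most genes above, and their 2 h values fell into separate clusters. Il6, which encodes interleukin 6, read 6.39, 6.41 and 3.37 at 10 cGy and 6.21, 6.11 and 3.31 at 100 cGy at 2 h. At 6 h it read 2.85 to 3.53 (median 3.25), under the low-signal limit of 4.35 like the replicate 3 arrays at 2 h. The change was -2.08 ± 0.54 (adjusted p = 0.0213), and -3.06 ± 0.11 (adjusted p = 1.70e-10) without replicate 3 at 2 h, both against a level at the bottom of the scale. Nr4a1, an orphan nuclear receptor gene of the immediate early class, named after its values were seen, read 10.00, 9.69 and 6.79 at 10 cGy and 9.66, 9.59 and 6.94 at 100 cGy at 2 h. At 6 h it read 6.66, 6.83 and 6.72 at 10 cGy and 6.75, 6.83 and 6.66 at 100 cGy. Replicates 1 and 2 at 2 h thus lay far above every 6 h array, and replicate 3 at 2 h lay with the 6 h arrays. The change was -2.03 ± 0.53 (adjusted p = 0.0205), and -2.99 ± 0.08 (7.96-fold lower, adjusted p = 5.90e-12) without replicate 3 at 2 h. Ccn2, connective tissue growth factor, a target of YAP and SRF, read at most 7.20 on the replicate 3 arrays at 2 h, 10.07 to 10.19 on the others and 6.56 to 7.23 at 6 h. Its change was -2.20 ± 0.56 (adjusted p = 0.0187), and -3.21 ± 0.10 (9.28-fold lower, adjusted p = 2.88e-11) without those arrays. The call of Nr4a1 was lost without replicate 2 at 2 h after 100 cGy (adjusted p = 0.0503). That of Il6 was lost without the same array (adjusted p = 0.0517) or without replicate 1 at 6 h after 10 cGy (adjusted p = 0.0509).

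The promoter of Nr4a1 is shown because the gene made such a step and its 250 bases hold 4 matches to TGACG, the core of the CREB binding site. All 4 lie on the opposite strand and so read as the reverse complement, in capitals.
Nr4a1 (chr15:101266596-101266845, plus strand): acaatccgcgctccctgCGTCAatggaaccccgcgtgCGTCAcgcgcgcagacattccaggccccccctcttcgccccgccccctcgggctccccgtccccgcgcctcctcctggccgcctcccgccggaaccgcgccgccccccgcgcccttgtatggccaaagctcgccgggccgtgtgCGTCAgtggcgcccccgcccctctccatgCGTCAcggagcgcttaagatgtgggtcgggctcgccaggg
The core was found in 15 of 24 tested immediate early genes with an entry (62.5%), against 19.8% of all genes, and in 3 of the 7 called members with an entry. Here too the share can reflect how the list was chosen. Ccn2 has no entry in the table.

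The immediate early list as a whole depended on the replicate 3 arrays at 2 h. Of 32 tested members, 6 fell (18.8%, against 6.29% of all genes) and 2 rose (6.25%, against 7.84%) with all arrays. Without both, 15 fell and 6 rose, in a fit where 9.97% of all genes fell and 13.4% rose. Without replicate 3 at 2 h after 10 cGy 12 fell, and without that after 100 cGy 12 fell. Of 20 genes of MAPK feedback, 5 fell (25%) and 2 rose (10%), to be set against the same shares of all genes. Without both arrays 12 fell and 3 rose. That count of 5 ran from 1 without replicate 2 at 2 h after 100 cGy to 10 without replicate 3 at 2 h after 10 cGy. The following genes were named after their values were seen. None was called with all 12 arrays, and each was called without both replicate 3 arrays at 2 h, in the fit with array weights and in the fit without replicate 3 at both times. Egr2, a zinc finger immediate early factor, changed by -1.80 ± 0.74 (adjusted p = 0.124) with all arrays and by -3.17 ± 0.08 (adjusted p = 5.90e-12) without both. Lif, a cytokine of the interleukin 6 family, changed by -1.79 ± 0.63 and -2.94 ± 0.08. Has2, hyaluronan synthase, changed by -1.01 ± 0.65 and -2.19 ± 0.07, Inhba, the activin A subunit, by -1.13 ± 0.43 and -1.91 ± 0.08, and Vegfa by -0.58 ± 0.44 and -1.37 ± 0.09. The EGF receptor ligand genes Ereg and Hbegf changed by -1.03 ± 0.35 and -0.73 ± 0.42 with all arrays, and by -1.65 ± 0.08 and -1.50 ± 0.07 without both. In all 7 genes the replicate 3 arrays at 2 h lay below every other 2 h array, and in all but Ereg they also lay under every 6 h array.

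Other genes of the early response and of EGF receptor signalling gave smaller steps. Ccn1, a matricellular YAP target, ran from 8.78 to 8.93 at 2 h (median 8.86) and from 8.06 to 8.48 at 6 h (median 8.30). It fell by 0.57 ± 0.07 (1.49-fold, adjusted p = 0.000137) with no overlap. Ier3, an immediate early survival gene, fell by 0.49 ± 0.10 (adjusted p = 0.00535). Jun, the AP-1 subunit gene, went the other way, from 8.43 to 9.10 at 2 h (median 8.66) to 9.24 to 9.37 at 6 h (median 9.34). It rose by 0.60 ± 0.10 (adjusted p = 0.00223). Etv5, an ETS factor and target of ERK signalling, rose by 0.69 ± 0.10 (adjusted p = 0.000512). Btc, which encodes the EGF receptor ligand betacellulin, ran from 6.74 to 7.80 at 2 h (median 7.58) and from 8.10 to 8.39 at 6 h (median 8.27), and rose by 0.89 ± 0.18 (adjusted p = 0.00481), or by 0.59 ± 0.08 without both replicate 3 arrays at 2 h. Betacellulin thus rose while its relatives epiregulin and heparin-binding EGF were lower at 6 h than on 4 of the 6 arrays at 2 h. Hspa1b, an inducible HSP70 gene, read 6.47 to 6.86 on replicates 1 and 2 at 2 h, 8.93 and 8.98 on replicate 3 and 8.79 to 9.17 at 6 h. It rose by 1.45 ± 0.42 (adjusted p = 0.0347), and by 2.21 ± 0.09 (adjusted p = 4.06e-10) without replicate 3 at 2 h. Its call was lost in 10 of the 12 fits that left out 1 array (highest adjusted p = 0.0772).

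Further genes that fell without overlap were regulators of growth factor signals, adhesion and transcription. Fst, follistatin, which binds and blocks activin, ran from 7.74 to 8.93 at 2 h (median 8.82) and from 6.93 to 7.37 at 6 h (median 7.04). It fell by 1.42 ± 0.20 (2.67-fold, adjusted p = 0.000508), and by 1.75 without both replicate 3 arrays at 2 h. Col8a1, a short-chain collagen gene, ran from 7.21 to 7.68 at 2 h (median 7.25) and from 6.05 to 6.42 at 6 h (median 6.24), and fell by 1.08 ± 0.08 (adjusted p = 5.04e-06). Selp, P-selectin, fell by 1.03 ± 0.16, Ampd3, an AMP deaminase gene, by 1.03 ± 0.20, Rgs4, a regulator of G protein signalling, by 0.85 ± 0.10 and Trim24, a transcription coregulator and ubiquitin ligase, by 0.81 ± 0.08. Tle4, a Groucho corepressor, fell by 0.85 ± 0.11, to a 6 h mean of 4.12 that lies under the low-signal limit. Of 20 circadian clock genes, 5 fell (25%, against 6.29% of all genes) and 0 rose by limma (1 higher at an unadjusted p under 0.05). They were the nuclear receptor genes Rora (-0.56 ± 0.09) and Nr1d2 (-0.32 ± 0.09), the repressor gene Cry2 (-0.58 ± 0.11) and the bZIP factor genes Hlf (-0.62 ± 0.10) and Nfil3 (-0.92 ± 0.26). Without replicate 1 at 6 h of either dose or replicate 1 at 2 h after 100 cGy, 3 fell. Nr1d2 was not called in 7 and Nfil3 in 9 of the 12 fits that left out 1 array (highest adjusted p 0.0933 and 0.0736). In glycolysis and hypoxia genes 4 of 24 rose (16.7%, against 7.84% of all genes) and 2 fell (8.33%, against 6.29%). Slc2a1, the GLUT1 glucose transporter gene, was higher by 0.48 ± 0.11 (adjusted p = 0.00887). Among 38 extracellular matrix genes 4 rose and 4 fell (10.5% each, near the shares of all genes, 7.84% and 6.29%). Lamb1, laminin beta 1, was higher by 0.56 ± 0.11 and Thbs1, thrombospondin 1, lower by 0.76 ± 0.15. Of 15 reference genes, 1 was called: Tubb5, a beta-tubulin gene (-0.16). It was not called without both replicate 3 arrays at 2 h (adjusted p = 0.0628), and another of its probe sets had the opposite sign.

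The remaining lists each had at most 6 members called in a direction, against 7.84% of all genes higher and 6.29% lower. Of 20 interferon response genes 1 rose and 3 fell (15%), the riser being the transcription factor gene Irf1 (0.64 ± 0.15, adjusted p = 0.0144). Of 23 NRF2 antioxidant genes 4 rose (17.4%) and 3 fell (13%), and 2 rose without replicate 3 at 6 h after 10 cGy. Osgin1, an oxidative stress gene, rose by 0.58 ± 0.10, and Hmox1, heme oxygenase 1, fell by 0.36 ± 0.08. Of 41 SRF, YAP and actin cytoskeleton genes 2 rose and 6 fell (14.6%), among them Cav1, the caveolin 1 gene, lower by 0.41 ± 0.05 (adjusted p = 0.000346). Of 38 ribosome biogenesis and Myc-linked genes 3 rose and 0 fell by limma (0 also at an unadjusted p under 0.05). Mxd4, a Max partner that opposes Myc, rose by 0.72 ± 0.12 (adjusted p = 0.00137), while the other two, Polr1a and Wdr12, rose by 0.22 and 0.17 and were not called without both replicate 3 arrays at 2 h. Of 19 cholesterol synthesis genes 0 rose by limma (2 at an unadjusted p under 0.05) and 3 fell (15.8%), and of 13 fatty acid synthesis genes 1 rose and 1 fell. Of 19 genes of matrix proteases and the plasminogen system 2 rose and 2 fell, of 12 EGF receptor ligands and receptors 2 rose and 1 fell, and of 19 heat shock genes 3 rose and 3 fell (15.8% each). Of 25 apoptosis genes 1 rose and 3 fell, and of 23 TGF-beta and BMP response genes 0 rose by limma (2 at an unadjusted p under 0.05) and 2 fell. Several of these counts moved without both replicate 3 arrays at 2 h, a fit in which 13.4% of all genes rose and 9.97% fell. In it 5 TGF-beta and BMP genes rose and 9 fell, 3 apoptosis genes rose and 6 fell, and 3 interferon response genes rose and 2 fell. Of the ribosome and Myc list 2 rose and 3 fell (Rrs1, Mxi1 and Myc, named after their values were seen), 3 fatty acid genes rose, and 4 matrix protease genes rose. In the same fit 9 genes of the SRF list, 4 of the EGF receptor list, 7 of the extracellular matrix list and 9 of the clock list fell. Without either of these arrays alone 6 TGF-beta and BMP genes fell and 3 interferon response genes rose. Leaving out 1 of the other 10 arrays moved counts of 3 or fewer members in these lists by up to 2.

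The doses gave the same direction. All 1226 called genes had the same sign at 10 and at 100 cGy, in a fit that chose them over both doses. Across all 8675 genes the steps at 10 and 100 cGy correlated with r = 0.78, a description over genes, which are not independent replicates, with no arrays in common. The replicate 3 arrays at 2 h of both doses stood apart in the same way and contribute to it. Tested alone with 3 arrays against 3, 168 genes rose (1.94%) and 120 fell (1.38%) at 10 cGy (3.32% in all), and 121 rose (1.39%) and 134 fell (1.54%) at 100 cGy (2.94% in all). Leaving out both replicate 3 arrays at 2 h raised these counts to 1298 and 996. Without replicate 3 at 2 h after 10 cGy alone they were 788 and 496, and without replicate 2 at 6 h of the dose tested they were 94 and 63. Tested against each other, the steps at the 2 doses differed in 0 genes by limma, with 186 at an unadjusted p under 0.05. Among the 24 leading genes the unadjusted p of that test ran from 0.0322 (Adam12) to 0.990 (H1f2). A p of this kind does not show that the steps were equal. Without both replicate 3 arrays at 2 h 2 genes were called (0.0231%), both lower and named here for that reason: Neat1, a nuclear long noncoding RNA, and Rpl12, a ribosomal protein gene. Their 100 cGy steps were lower than their 10 cGy steps by log2 differences of -1.46 ± 0.15 (adjusted p = 0.00268) and -0.88 ± 0.13 (adjusted p = 0.0473).

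**Figure D3:**
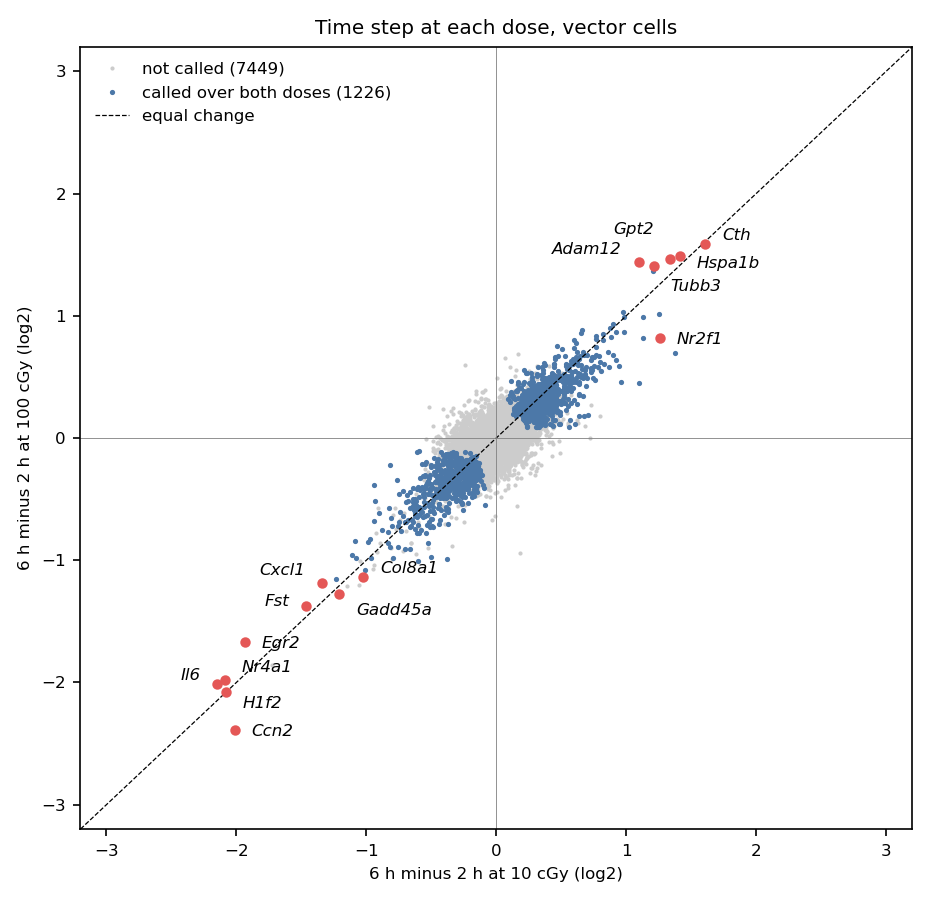
Log2 change from 2 h to 6 h at 10 cGy (horizontal axis) against that at 100 cGy (vertical axis) for all 8675 tested genes in vector cells, with called genes coloured. All 1226 called genes lie in the lower left and upper right quadrants, with Cth at 1.61 and 1.59 and H1f2 lowest among the genes without overlap.

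Levels at other times place these steps. Cth, Gpt2 and Psph in untreated cells were higher at 24 h than at 2 h by 0.32 ± 0.28, 0.75 ± 0.35 and 0.25 ± 0.32, none of them called. Adam12 in untreated cells was lower at 24 h than at 2 h by -1.19 ± 0.17 (adjusted p = 0.00368, limma), opposite in sign to its irradiated 2 to 6 h step. Ccn2 was lower by -3.94 ± 0.70 (adjusted p = 0.00874) and Mdm2 by -0.84 ± 0.12 (adjusted p = 0.00372) over the same interval. Rfc4 and Top2a differed there by -0.05 ± 0.10 and -0.05 ± 0.10, neither called. In all, 1131 genes (13% of those tested, 6.67% higher and 6.36% lower) were called between untreated cells at 24 h and 2 h. The untreated group at 2 h holds a replicate 3 array as well, and without it the count was 2059. On the second principal component of all arrays in the series, this array lay at -2.37, against -17.49 and -16.91 for its group mates. The replicate 3 arrays of irradiated vector cells at 2 h lay at 0.57 and 1.75. Their group mates lay between -19.56 and -17.38. Replicate 3 at 2 h thus stood apart in untreated vector cells too. The untreated steps given here, and those above for H1f2 and Cxcl1, include this untreated array. On that array the signal of the 3' minus the 5' probe set was 0.59 for Gapdh and 0.62 for Actb, above both other arrays of its group (0.02 and 0.11 for Gapdh, 0.19 and 0.34 for Actb), and the part of this in the result was not tested.

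**Figure D4:**
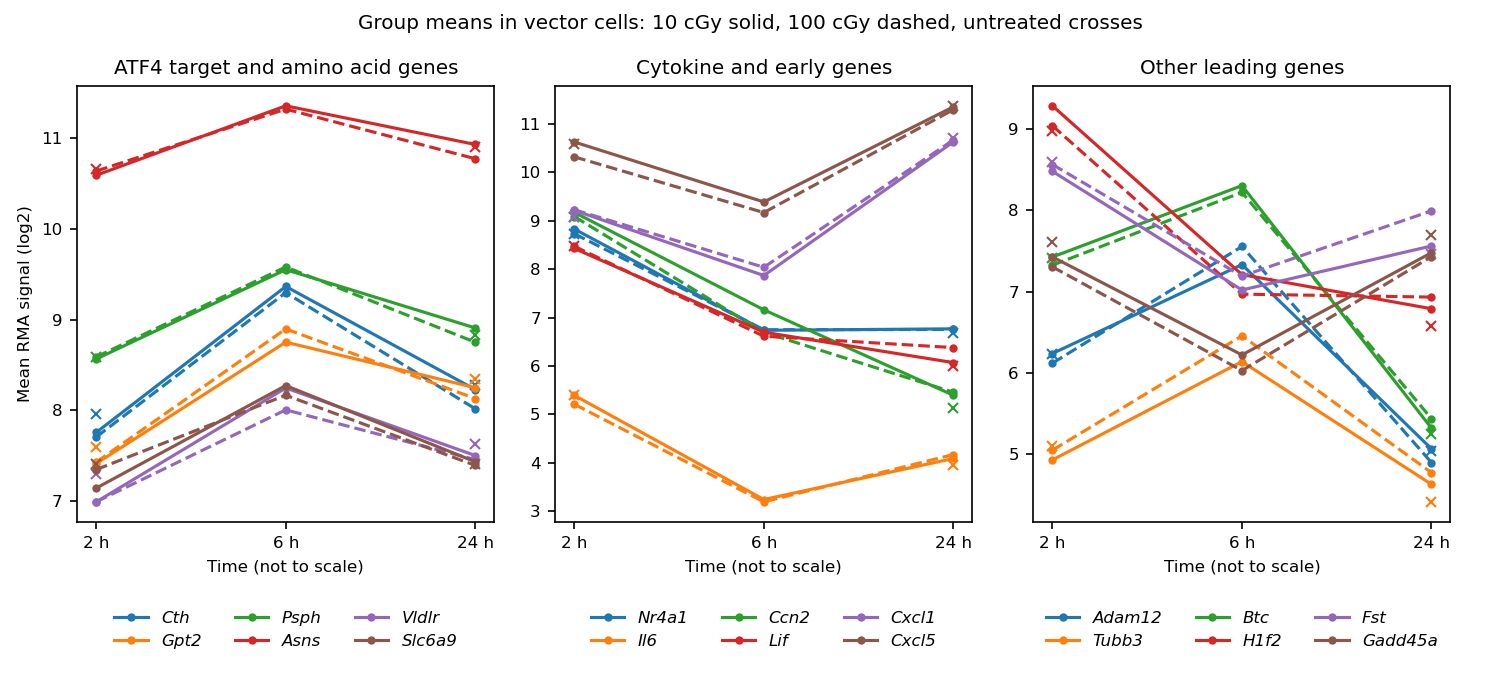
Mean log2 RMA signal (vertical axis) of 18 genes in vector cells at 2, 6 and 24 h (horizontal axis, not to scale), solid at 10 cGy and dashed at 100 cGy, crosses for untreated cells at 2 and 24 h. Group means are of 3 arrays, or 2 at 24 h after 10 cGy, and no error is drawn. The first panel's genes lie highest at 6 h after both doses, and Cxcl1 and Cxcl5 lie lowest at 6 h.

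In irradiated cells of the Anxa2 shRNA line, the same step called 717 genes higher and 612 lower (15.3% of those tested). On the Gapdh measure of RNA quality given above, shRNA replicate 1 at 6 h after 10 cGy read 1.06. Replicate 2 at 2 h after 100 cGy read 0.49, and the other shRNA arrays of this step at most 0.16. The irradiated vector arrays at these times ran from -0.08 to 0.11. The shRNA arrays at 1.06 and 0.49 entered the step and the tests between lines. Their part in these results was not tested beyond leaving out single arrays. Of the 1226 genes called in vector cells, 1086 (88.6%) had the same sign in shRNA cells, against 65.2% of all genes. Of the 680 genes that rose, 268 (39.4%) also rose in shRNA cells, against 8.27% of all genes, and of the 546 that fell, 238 (43.6%) also fell, against 7.05%. Only 9 were called in the opposite direction. Tested for a step that differed between lines, 135 genes were called (1.56%, 0.83% higher in vector cells and 0.726% lower), among them 68 of the 1226 (5.55%). Without replicate 3 of the shRNA cells at 2 h after 10 cGy 85 were called, and without both replicate 3 arrays of vector cells at 2 h 288 were (3.32%, 1.78% higher and 1.54% lower).

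Several of the leading genes differed between the lines. Adam12 rose by 1.27 ± 0.08 in vector and 0.27 ± 0.07 in shRNA cells, a difference of 0.99 ± 0.10 (adjusted p = 3.39e-06). Tubb3 rose in vector cells, with a value of -0.04 ± 0.13 in shRNA cells (difference 1.35 ± 0.17, adjusted p = 0.000137). Spon2 and Rgs4 had values of -0.03 ± 0.10 and -0.01 ± 0.09 in shRNA cells, and differed by 0.89 ± 0.12 and -0.84 ± 0.14. Cth rose in both lines, by 1.60 ± 0.14 and 0.57 ± 0.08 (difference 1.03 ± 0.17, adjusted p = 0.00180). H1f2 fell in both (-2.08 ± 0.18 and -1.01 ± 0.08), and Cxcl1 fell further in shRNA cells (-2.25 ± 0.12). Thus the rise of Tubb3, Adam12 and Spon2 was larger in vector cells, and the fall of Cxcl1 smaller. Ccng2, the cyclin G2 gene, moved in opposite directions in the lines. In vector cells Ccng2 ran from 6.79 to 7.33 at 2 h (median 6.97) and from 6.05 to 6.45 at 6 h (median 6.31), and fell by 0.72 ± 0.09 (adjusted p = 0.000244). In shRNA cells it rose by 1.02 ± 0.08, a difference of -1.75 ± 0.10 (adjusted p = 6.51e-10). Mmp13, the collagenase 3 gene, fell by 0.36 ± 0.08 in vector cells and rose by 0.76 ± 0.12 in shRNA cells (difference -1.12 ± 0.15, adjusted p = 0.000147). Nppb (B-type natriuretic peptide), Nr4a2 (a relative of Nr4a1) and Sgk1 (a serum-induced kinase) changed by -0.19 ± 0.14, 0.08 ± 0.08 and 0.12 ± 0.14 in vector cells, none called. In shRNA cells they fell by 1.74 ± 0.13, 1.31 ± 0.10 and 1.01 ± 0.07, and the differences were 1.55, 1.39 and 1.13 (adjusted p = 0.000137, 3.39e-06 and 0.000568).

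**Figure D5:**
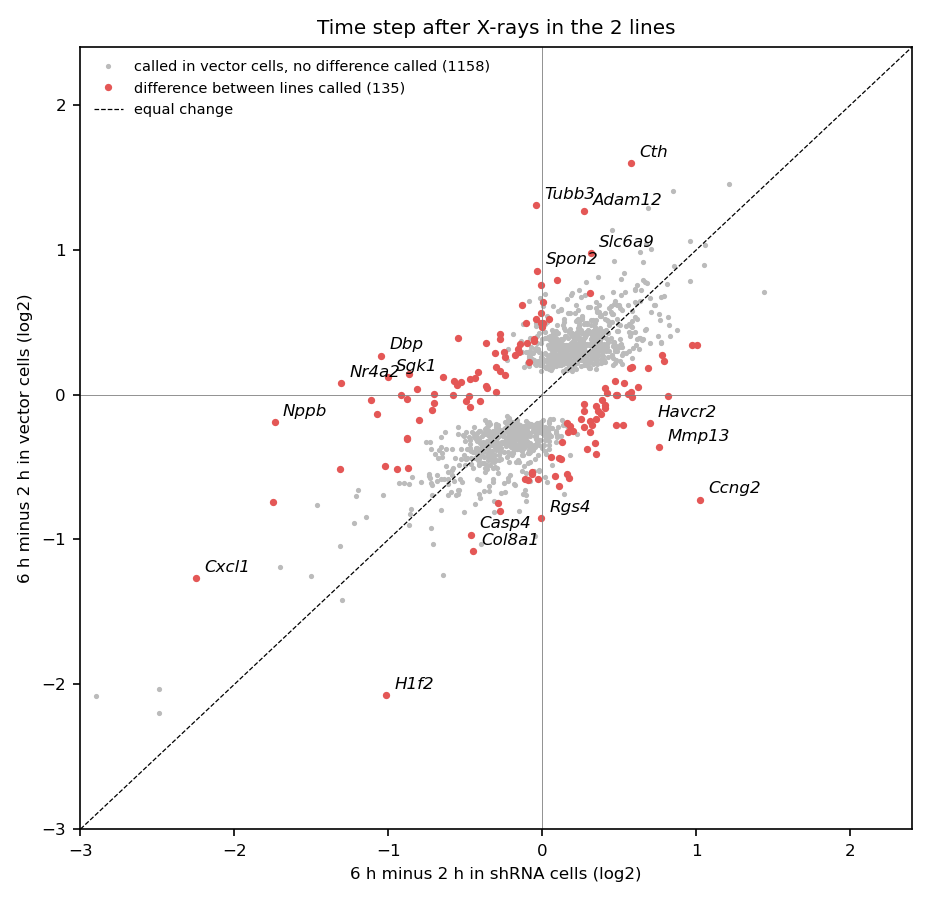
Log2 change from 2 h to 6 h after X-rays in Anxa2 shRNA cells (horizontal axis) against that in vector cells (vertical axis) for the genes called in either test, with the 135 genes whose step differed between the lines in a second colour. Ccng2 lies at 1.02 and -0.72, and Tubb3 at -0.04 and 1.31.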

How the data were processed

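RNA of 47 samples was hybridised to 47 Affymetrix arrays with 22690 probe sets, of a model that the labels do not name. The labels' protocols give RNeasy isolation and one-cycle labelling of 3 µg RNA from an oligo-dT primer. The deposited values are log2 RMA signals (1.84 to 14.03), per the submitters' processing notes, used as the authors deposited them; no version is given. RMA uses all arrays together and can compress low signals. The number of arrays limits the precision.

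Samples were grouped by labelled line, dose and time. Of the probe sets, 64 were controls, 20380 had 1 gene symbol, 691 several and 1555 none. The probe set with the highest mean stood for each of 12393 genes, and the lowest 30% by mean (log2 under 4.35) were left out, leaving 8675. limma 3.58.1 in R 4.3.3 was fitted to the 12 arrays with dose as a covariate (9 residual and 4.56 prior degrees of freedom), two-sided, with Benjamini-Hochberg adjustment and a threshold of 0.05. Group means of the same arrays gave the steps by dose and the dose by time test, 24 arrays the test between lines, and 6 arrays the untreated comparison. The 31 gene lists hold 924 entries, 822 of them on the array, and were counted without a set test. Promoters and motif counts came from a RefSeq table of GRCm38.p6. The code was tested on simulated data.

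Named genes are the called genes that changed most without overlap between the 6 arrays at each time (12 in each direction), up to 6 members per list with the smallest p, up to 5 higher and 5 lower called genes of the dose by time and line by time tests, and Anxa2, Cdkn1a, Mdm2 and Ccng1 always. Other genes, apart from the cell type markers, are said to have been named after their values were seen. The members and lists were chosen with earlier results of these data known. Of 106 other probe sets of named genes, 102 had the sign of the one used and 4 the opposite (of Dbp, Anxa2, Tap1 and Tubb5). Sizes could differ either way, as for Slc6a9 (0.54 against 0.97 in the one used), Mxd4 (0.30 against 0.72) and Wdr12 (0.39 against 0.17). The labels do not say what replicate numbers share. Same-numbered arrays of different groups correlated in their deviations with r from -0.19 to 0.72, over 0.1 in 10 of 18 pairs. Alternatives changed the filter, the probe set rule, scaling, weights, the replicate block and the arrays used. Raw array files were not analysed here.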

Additional observations from a re-analysis of the deposited data

Results flagged for a closer look

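Among 56 groups of 6 arrays examined, 2 held an array far from the other 5, no more than the about 1 in 20 that chance gives. Each group pools both doses. The rule looks for 1 array apart, so the 2 replicate 3 arrays at 2 h can mask each other in it. Cxcl5 at 6 h read 9.63 on replicate 2 after 10 cGy, against 9.12 to 9.27 on the others. Col8a1 at 2 h read 7.68 on replicate 1 after 10 cGy, against 7.21 to 7.34.

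The step from 2 h to 6 h differed between vector and shRNA cells, by the limma test of the difference, in 17 named genes, given as vector minus shRNA. It was higher in vector cells for Nppb (1.55, adjusted p = 0.000137), Nr4a2 (1.39, adjusted p = 3.39e-06), Tubb3 (1.35, adjusted p = 0.000137), Dbp (1.32, adjusted p = 0.0183), Sgk1 (1.13, adjusted p = 0.000568) and Cth (1.03, adjusted p = 0.0018). It was also higher for Adam12 (0.99, adjusted p = 3.39e-06), Cxcl1 (0.98, adjusted p = 0.0262), Spon2 (0.89, adjusted p = 0.000249) and Slc6a9 (0.66, adjusted p = 0.00681). It was lower in vector cells for Ccng2 (-1.75, adjusted p = 6.51e-10), Mmp13 (-1.12, adjusted p = 0.000147), H1f2 (-1.06, adjusted p = 0.00889), Havcr2 (-0.89, adjusted p = 0.0295), Rgs4 (-0.84, adjusted p = 0.0018), Col8a1 (-0.63, adjusted p = 0.0315) and Casp4 (-0.50, adjusted p = 0.0136). Dbp, a clock output gene, lay under the low-signal limit in vector cells at both times, and its other probe set moved the opposite way there. The difference in Havcr2 was not called in 7 of 24 fits that left out 1 array. Without both vector replicate 3 arrays at 2 h all 17 differences were called, with values from -1.78 (Ccng2) to 1.71 (Dbp).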

How the results depend on the processing

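The 24 leading genes were called with the same sign under each alternative that kept them (all 11 for 19 genes, 9 or 10 for the rest, where a low-signal filter or averaged probe sets left a gene out) and in the 12 fits that left out 1 array. Of 136 named genes called, 102 were called in every such fit that held them. Leaving out both replicate 3 arrays at 2 h gave 1159 genes higher and 865 lower, leaving out replicate 3 at both times gave 1034 higher, and array weights gave 1252 higher and 1026 lower. With those arrays left out in the same 2 ways, the dose by time test called 2 and 1 genes, the line by time test 288 and 214, the 10 cGy step 1298 and 1385, and the 100 cGy step 996 and 814. In 1 fit to all 47 arrays, the line by time test called 247 genes, the 10 cGy step 592, the 100 cGy step 501 and the untreated comparison 2243. Why the counts differ was not tested.

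Leaving out 1 array gave 491 to 938 genes higher, 384 to 695 lower, 0 to 2 for dose by time (2 without replicate 3 at 2 h after 10 cGy), 85 to 169 for line by time, 94 to 788 at 10 cGy, 63 to 496 at 100 cGy, 989 to 1473 in shRNA cells and 415 to 2059 in untreated cells. The untreated count was 470 without replicate 1 at 2 h, 415 without replicate 1 at 24 h and 457 without replicate 3 at 24 h. The replicate numbers are not known to pair the samples, and 9 of 12 arrays correlated best with an array of their own number. With a replicate block 844 genes were higher and 719 lower, and the untreated comparison called 492.

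Of the genes not called, Sgk1 turned to -0.10, -0.053 and -0.048 and Havcr2 to 0.032, 0.13 and 0.0028 (both replicate 3 arrays at 2 h left out, replicate 3 left out at both times, array weights). With all probe sets of a gene averaged, Anxa2 turned to 0.00993 and Tubb5, which was called, to 0.00611. The share of calls that were higher was 55.5%, and 50.7% (arrays centred on their median) to 57.4% under the alternatives. Low signals such as those of Il6, Tle4 and Dbp are limited by the bottom of the scale.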
